A study of Mus musculus with 4 samples.

Results

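The genes described here encode proteins of neutrophil granules and cytoplasm. They are S100a8, S100a9, Ngp, Camp, Ltf, Lcn2 and Lyz2, measured in T cells that had been sorted to hold naive helper cells alone. They comprise the 7 probe sets, of 45037 that are not controls, which the array annotation assigns to exactly 1 of these 7 symbols, with 1 probe set per gene. They make up 7 of the 18193 genes that the table names. The genes were chosen by their signals on these same arrays, which earlier results had shown to be higher in knockout than in wild type, so that difference is given as a description and carries no test.

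Knockout mice carried 2 floxed alleles of the furin gene (fur flox/flox) together with CD4-cre, a Cre recombinase under the CD4 promoter, which is active in T lineage cells. Wild-type mice were littermates with the same floxed alleles and no Cre. Both were 10 to 11 weeks old, and CD4+ CD62L+ CD44- T cells were sorted from fresh tissue with no treatment. Each genotype had 2 Affymetrix mouse whole-genome arrays, numbered 1 and 2, a number of arrays that limits precision throughout. Nothing in the labels tells whether the 2 arrays of a genotype came from separate animals, so spread and p-values refer to these samples only. A Cre driven by CD4 deletes in T cells, and cells outside the T lineage would carry an intact furin gene. The single Furin probe set had signals of 391.4 and 446.9 on the arrays labelled knockout and 435.1 and 343.9 on those labelled wild type, so the genotypes overlapped and it did not separate the labels. Where it lies relative to the deleted part is not given in the sources used here, so knockout and wild type stand below for what the labels say.

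Neutrophils store antimicrobial proteins in granules that form in sequence as the cell matures. Primary granules come first and hold myeloperoxidase and serine proteases, specific granules follow with lactoferrin, cathelicidin, lipocalin 2 and the neutrophilic granule protein, and gelatinase granules come last. S100A8 and S100A9 pair as calprotectin, which fills the neutrophil cytosol and binds calcium and zinc. Resting naive T cells are not known as a source of these proteins. S100a8, S100a9 and Lyz2 are also transcribed in monocytes and macrophages, so not every gene here is restricted to neutrophils.

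The genes lie in few places of the mouse genome. S100a8 and S100a9 are adjacent on chromosome 3, Ngp, Camp and Ltf lie on chromosome 9, Lcn2 on chromosome 2, and Lyz2 lies next to its paralogue Lyz1 on chromosome 10. RefSeq promoter windows of build GRCm38.p6, from 250 bases before to 50 bases after the annotated start, were found for all 7. The windows of the calprotectin genes and of Ngp and Lcn2, whose signals did not overlap between genotypes, are shown 5′ to 3′. Capitals mark matches to the letters TTNNGCAA, a C/EBP-type motif, or GAGGAA, a PU.1-type motif, on either strand, and TATAAA on the sense strand.
S100a8, chr3:90668821-90669120, + strand: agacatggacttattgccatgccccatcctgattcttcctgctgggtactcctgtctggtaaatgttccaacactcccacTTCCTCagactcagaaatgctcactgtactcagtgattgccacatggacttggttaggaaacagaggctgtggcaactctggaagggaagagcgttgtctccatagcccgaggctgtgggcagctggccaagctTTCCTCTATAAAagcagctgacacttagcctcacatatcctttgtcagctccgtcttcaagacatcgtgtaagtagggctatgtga
S100a9, chr3:90695672-90695971, - strand: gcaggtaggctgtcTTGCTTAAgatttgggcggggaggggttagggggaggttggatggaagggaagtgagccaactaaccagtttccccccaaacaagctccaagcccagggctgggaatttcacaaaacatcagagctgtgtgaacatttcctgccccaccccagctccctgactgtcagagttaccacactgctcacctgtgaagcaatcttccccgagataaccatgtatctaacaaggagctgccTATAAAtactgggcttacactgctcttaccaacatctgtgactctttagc
Ngp, chr9:110419558-110419857, + strand: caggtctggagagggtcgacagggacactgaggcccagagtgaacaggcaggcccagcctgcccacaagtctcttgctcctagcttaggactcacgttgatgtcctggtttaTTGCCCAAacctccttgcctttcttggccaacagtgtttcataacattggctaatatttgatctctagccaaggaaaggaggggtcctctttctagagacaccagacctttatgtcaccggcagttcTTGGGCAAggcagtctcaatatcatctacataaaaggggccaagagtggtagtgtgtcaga
Lcn2, chr2:32387690-32387989, - strand: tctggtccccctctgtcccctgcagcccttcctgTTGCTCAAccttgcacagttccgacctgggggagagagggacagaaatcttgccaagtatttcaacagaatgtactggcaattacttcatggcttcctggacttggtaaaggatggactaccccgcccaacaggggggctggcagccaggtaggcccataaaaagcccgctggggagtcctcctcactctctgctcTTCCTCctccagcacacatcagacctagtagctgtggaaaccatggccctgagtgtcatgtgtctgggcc
C/EBP factors and PU.1 direct transcription in the granulocyte lineage. The C/EBP-type letters were present in 4 of the 7 windows (S100a9, Ngp, Ltf and Lcn2) and in 10.8% of all 32851 RefSeq promoter windows, and Ngp held 2 matches, beginning 138 and 11 bases before its start. The PU.1-type letters were present in 3 windows (S100a8, Ltf and Lcn2) and in 28.3% of all windows. TATAAA was present in 2, those of S100a8 and S100a9, and in 8.32% of all windows. In S100a8 it began 30 bases before the start, directly after a PU.1-type match. In S100a9 it began at the annotated start itself and not before it. A match describes letters only and shows no binding.

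Signals are MAS5 values on a linear scale, 1 per probe set, and differences are given as knockout minus wild type on the log2(signal + 15.3) scale, where 15.3 is the 25% quantile of all values; this scale understates changes of dim probe sets. Arrays of the same number resembled each other more than arrays of the same genotype. Deviations from the genotype means correlated at 0.800 between same-numbered arrays across 22518 probe sets, and bacterial hybridisation controls had a ratio of array 2 to array 1 of 6.09 in knockout and 6.25 in wild type. The Gapdh 3′ to 5′ ratio was 3.35 on knockout array 1 and 4.09 on wild-type array 1, against 0.934 on knockout array 2 and 0.905 on wild-type array 2. The actin 3′ to 5′ ratio went the other way, at 1.2 on knockout array 1 and 1.23 on wild-type array 1, against 1.77 on knockout array 2 and 1.72 on wild-type array 2. The labels do not say what the number stands for, so each difference is also given within arrays numbered 1 and within arrays numbered 2. The sorted population carried its defining transcripts on all arrays: Cd4 had signals of 3032 and 3348 in knockout and 3432 and 2974 in wild type, and Cd3d, a chain of the T cell receptor complex, had 10550 and 42143 in knockout and 9725 and 42640 in wild type.

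All 7 genes followed one order at the ends of the scale, with knockout array 2 the brightest and wild-type array 1 the dimmest. Such an order was found in 13.2% of the 22518 probe sets whose mean signal exceeded the median of such means, the set used for all tests and called kept below. All 7 were higher in knockout than in wild type within both array numbers, as were 25.3% of kept probe sets, while 30.2% were lower within both. Their median difference was 2.26, against -0.02 over all kept probe sets. Within arrays numbered 1 it was 1.18, and within arrays numbered 2 it was 3.23. All 7 passed the filter on mean signal, but this says little about their presence in wild type, because on wild-type array 1 every one of them lay below the filter level of 65.4 and 4 of them lay below 15.3.

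**Figure D1:**
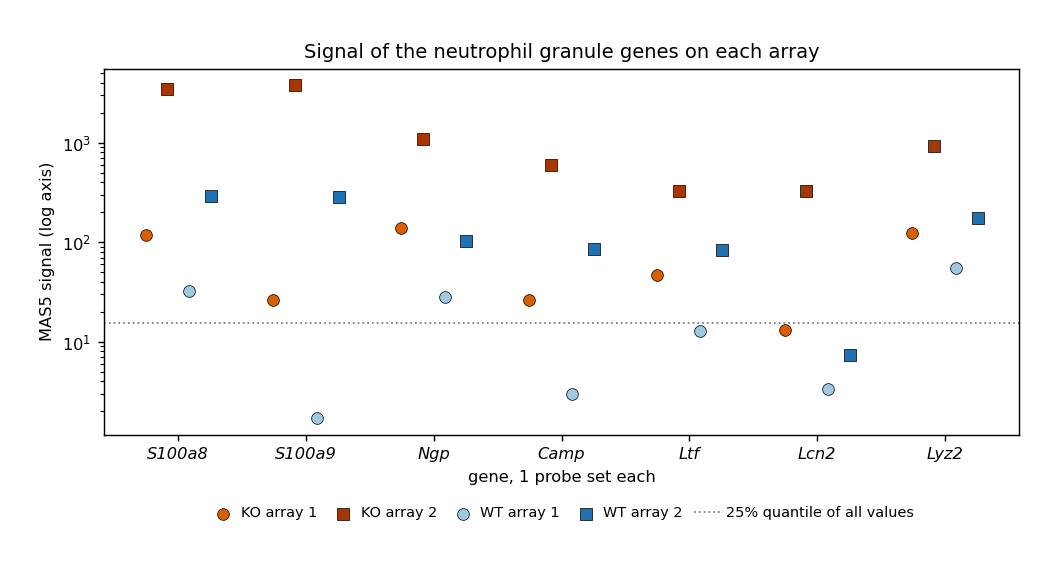
MAS5 signal (log axis) of each neutrophil granule gene on the 4 arrays, with 1 point per array, knockout (KO) in orange and brown and wild type (WT) in blue; circles are arrays numbered 1 and squares arrays numbered 2, and the dotted line is the 25% quantile of all values, 15.3. Knockout array 2 is the highest point for all 7 genes and wild-type array 1 the lowest.

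Among the calprotectin genes, S100a8 had signals of 118.7 on array 1 and 3468 on array 2 of the knockout, against 32 on array 1 and 292.2 on array 2 of the wild type. Both knockout values lay above the wild-type value of the same number, but the genotypes overlapped because knockout array 1 lay below wild-type array 2. The log2 level was 9.42 ± 3.32 in knockout and 6.91 ± 1.91 in wild type (SD, n = 2 each), a difference of 2.50, with 1.50 within arrays numbered 1 and 3.50 within arrays numbered 2. S100a9 had signals of 26.4 and 3797 in knockout and 1.7 and 285.5 in wild type, in the order of array number. Its values on the arrays numbered 1 were close to or below 15.3, so its linear ratio there cannot be read, and on the log2 scale it differed by 1.29 within arrays numbered 1 and by 3.66 within arrays numbered 2. On the arrays numbered 2 the linear signal ratio of knockout to wild type was 11.9 for S100a8 and 13.3 for S100a9. The partners of the calprotectin dimer thus had similar ratios where both were bright.

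Specific granule genes followed the same order. Ngp, which encodes the neutrophilic granule protein, a relative of the cathelicidins, had signals of 139.7 and 1087 in knockout and 28.1 and 102.1 in wild type. It was one of only 2 genes here whose lower knockout array lay above the higher wild-type array, which held for 7.58% of kept probe sets, with the reverse in 9.48%. Its difference was 2.53, with 1.84 within arrays numbered 1, the largest of the 7 there, and 3.23 within arrays numbered 2. Camp, the mouse cathelicidin, had signals of 26.1 and 599.2 in knockout and 3 and 85.3 in wild type. Wild-type array 1 was below 15.3 and knockout array 1 was below wild-type array 2, so the genotypes overlapped. The difference of Camp was 1.89, with 1.18 and 2.61 within arrays numbered 1 and 2.

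Ltf encodes lactoferrin, an iron-binding protein, and had signals of 46.6 and 329.6 in knockout and 12.9 and 84.2 in wild type. Its difference of 1.46 was the smallest of the 7 and the most even between array numbers, at 1.13 and 1.79. Lcn2 encodes lipocalin 2, which captures bacterial siderophores, and was at 13 and 327.4 in knockout and at 3.3 and 7.4 in wild type. Of its 4 values only that of knockout array 2 exceeded 15.3. The genotypes did not overlap in Lcn2, but the order of the 3 dim values cannot be told from background because the table holds no detection calls. Its difference on the log2(signal + 15.3) scale was 0.61 within arrays numbered 1 and 3.92 within arrays numbered 2, and since both wild-type values were below 15.3, no linear ratio can be read.

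Lyz2 encodes the lysozyme of macrophages and neutrophils. It had signals of 123.3 and 935.4 in knockout and 54.6 and 174.2 in wild type, and knockout array 1 lay below wild-type array 2. Its difference was 1.66, with 0.99 and 2.33 within arrays numbered 1 and 2. Lyz1, its neighbour and near-identical paralogue, is measured by 3 probe sets, which can share signal with Lyz2 and are therefore uncertain. The brightest of them had 461.3 and 1604 in knockout and 185.0 and 129.4 in wild type, a second had 160.1 and 382.8 against 74.6 and 82.5, and the dimmest had 32.9 and 82.8 against 17.3 and 48.9. In the first and second, both knockout arrays lay above both wild-type arrays, as in 7.58% of kept probe sets, with the reverse in 9.48%. Over the promoter window of 300 bases the 2 lysozyme genes were 82.5% identical in a global alignment.

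The size of the difference was unequal between the array numbers. The difference was larger within arrays numbered 2 than within arrays numbered 1 in 7 of 7 genes, as in 47.2% of kept probe sets, and the excess ranged from 0.66 for Ltf to 3.31 for Lcn2. Within arrays numbered 1, 5 of the 7 were at least 1 log2 unit higher in knockout, against 1.36% of kept probe sets, and within arrays numbered 2 all 7 were, against 2.34%. Both held for 5 of the 7 and for 0.382% of kept probe sets. With 1 array per genotype and number, this interaction has no residual degrees of freedom and was not tested. Summed over the 7 probe sets, the signal was 493.8 on knockout array 1 and 135.6 on wild-type array 1, a ratio of 3.64, and it was 10544 on knockout array 2 and 1031 on wild-type array 2, a ratio of 10.2. The ratio of 3.64 is uncertain, since 4 of the 7 signals lay below 15.3 on wild-type array 1.

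**Figure D2:**
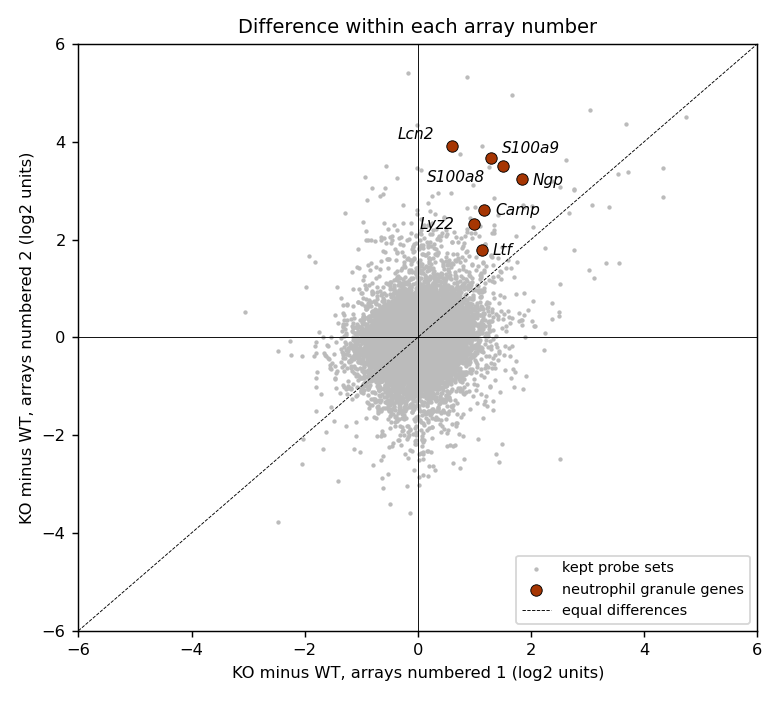
Difference of knockout (KO) minus wild type (WT), in log2 units, within arrays numbered 1 (horizontal) and within arrays numbered 2 (vertical) for the 22518 kept probe sets in grey and the neutrophil granule genes in brown; the dashed line marks equal differences. All 7 named points lie right of and above 0 and above the dashed line, from Ltf at 1.13 and 1.79 to Lcn2 at 0.61 and 3.92.

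Among all kept probe sets, limma without a block called 0 of 22518 for genotype at a Benjamini-Hochberg adjusted p of 0.05 (0%), with 145 at an unadjusted p under 0.05 (0.644%), and it called 0 of the 7 neutrophil granule genes, none of which had an unadjusted p under 0.05. With array number as a block it called 1 probe set (0.00444%), with 1828 at an unadjusted p under 0.05 (8.12%), and 0 of the 7. A fit that added a trended prior to the block, called the trended fit below, called 257 (1.14%), of which 181 were higher in knockout (0.804%), and 5 of the 7 were among these, namely S100a8, S100a9, Ngp, Camp and Lyz2. These counts use the contrast by which the genes were chosen and support nothing about them. Without knockout array 2 the median difference of the 7 was 0.22, that of S100a9 was -0.78 and that of Camp was -0.052. That value sets knockout array 1 against the mean of both wild-type arrays and so mixes in array number. Knockout array 1 against wild-type array 1 alone gave the median of 1.18 stated above, with all 7 higher in knockout.

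The array number also separated the signals of these genes, and since the genes were chosen on these arrays and passed the filter largely through arrays numbered 2, this is given as a description. All 7 were brighter on array 2 than on array 1 in both genotypes, as were 43.2% of kept probe sets. In limma with genotype and number as terms, 34.1% of kept probe sets were called in either direction and 19.3% as higher on arrays numbered 2. The differences between array 2 and array 1 were 4.70 in knockout and 2.70 in wild type for S100a8, and 6.51 and 4.15 for S100a9. In wild type alone, the median difference of array 2 minus array 1 over the 7 was 1.82, against 0.07 over all kept probe sets. With no filter on mean signal this fit called 0 probe sets.

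Other granule genes were examined from lists of textbook members. Of 14 other genes of specific and gelatinase granules with a probe set, 6 were higher and 0 lower in knockout within both array numbers, where 25.7% of all unfiltered probe sets were higher and 26.8% lower. Their median difference was 0.21, against -0.01 over all probe sets. Chil3, a chitinase-like protein of neutrophils and activated macrophages, had signals of 43.2 and 265.4 in knockout and 11.5 and 3.2 in wild type. Both knockout arrays thus lay above both wild-type arrays, as in 7.58% of kept probe sets. Its difference was 2.52 (SE 0.82), with 1.13 within arrays numbered 1 and 3.92 within arrays numbered 2. Unlike in the 7 genes above, the wild-type value of Chil3 was lower for array 2 than for array 1, but both wild-type values were below 15.3. Slpi, a protease inhibitor, had 343.2 and 943.8 in knockout and 220.6 and 456.5 in wild type, and Cybb, the catalytic subunit of the phagocyte oxidase, had 89.4 and 213.2 against 79.9 and 55.4. Mmp8, the neutrophil collagenase, was dim throughout, at 12.2 and 17.9 in knockout and 20.0 and 4.4 in wild type. The remaining kept genes showed small or mixed differences. Pglyrp1 and Cyba were lower in knockout within arrays numbered 1, at -0.37 and -0.44, and higher within arrays numbered 2, at 0.83 and 0.23. Cfp and Adam8 differed by 0.0006 and 0.19. All genes of this paragraph except Chil3 were named after their values were seen. None of the 7 kept members of this group passed limma with or without the block, and Chil3 passed in the trended fit.

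All 5 measured primary granule genes were too dim to be kept, and the highest signal of any of them was 124.7. Elane, neutrophil elastase, had 62.2 and 114.1 in knockout and 27.9 and 1.7 in wild type. Mpo, myeloperoxidase, had 43.9 and 124.7 against 40.5 and 46.1. Both were named after their values were seen. Knockout array 2 was the brightest array for all 5, including Prtn3, Ctsg and Ms4a3, but the share of all probe sets brightest there was not determined. Of the 5, 3 were higher and 0 lower in knockout within both array numbers, where 25.7% of all unfiltered probe sets were higher and 26.8% lower.

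Surface and maturation markers of neutrophils were dim as well. Of 20 with a probe set 6 were kept, all 6 were higher in knockout within both array numbers, and 0 passed limma without the block, with it or in the trended fit. The filter on mean signal favours genes bright on knockout array 2, so the count among kept genes is a description. Ifitm6, for example, exceeded 65.4 on that array alone, with 25.8 and 181.1 in knockout and 21.6 and 61.2 in wild type. Over all 20, 13 were higher and 0 lower, with a median difference of 0.71, where 25.7% of all unfiltered probe sets were higher and 26.8% lower. Csf3r, the receptor of granulocyte colony-stimulating factor, had signals of 66.4 and 233.2 in knockout and 63.1 and 7.9 in wild type, and differed by 0.06 within arrays numbered 1 and by 3.42 within arrays numbered 2. Fcgr3, an IgG Fc receptor, differed by 0.78 (SE 0.56; 0.50 and 1.06), and Ccl6, a myeloid chemokine, by 0.78 (SE 0.46; 0.07 and 1.50). Cxcr2, a chemokine receptor that defines mature neutrophils, stayed at 7.2 and 5.5 in knockout and 6.7 and 11.7 in wild type, below 15.3 on every array. Ly6g and Retnlg were not analysed here. Of the other 4 measured neutrophil markers, Cxcr2 and Mmp8 thus stayed near the bottom of the scale on all arrays, while Csf3r and Mmp9 reached 233.2 and 98.1 on knockout array 2.

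Transcription factors and binding partners were mixed. Of 9 granulocyte factors, 5 were higher and 2 lower within both array numbers. Cebpb, a C/EBP factor induced in myeloid cells, had signals of 264.9 and 1145 in knockout and 79.3 and 417.9 in wild type, a difference of 1.49 (SE 1.03) that was nearly equal within arrays numbered 1 and 2, at 1.57 and 1.42. Irf8, a factor of monocytes, dendritic cells and B cells, had 382.7 and 598.3 against 173.5 and 129.6, and Gfi1, a repressor used in both granulocytes and T cells, had 632.6 and 542.5 against 484.2 and 332.4. In both of these the knockout arrays lay above the wild-type arrays without overlap, as in 7.58% of kept probe sets. Cebpb and Irf8 passed in the trended fit, and none of the factors passed in limma with or without the block. The trended fit also called genes of the B cell, cytotoxic and macrophage lists, which are named in the last section. Of 8 receptors and partners of the proteins, 4 were higher and 0 lower. P2rx7, an ATP-gated channel engaged by the human cathelicidin peptide, had 847.1 and 830.5 in knockout and 631.8 and 697.2 in wild type, Ly96, the TLR4 co-receptor, differed by 0.55 (SE 0.60) and Bsg, a receptor for S100A9, by 0.37 (SE 1.06). Tlr4 was at or below 9.4 in knockout and at 3.9 and 41.4 in wild type. Within the S100 family, 4 of the 11 other measured genes were higher and 1 was lower. S100a4 had 65.8 and 343.1 in knockout and 16.4 and 34.6 in wild type and S100a6 had 118.2 and 328.3 against 66.2 and 74.1, whereas S100a10, the annexin A2 partner, had 6493 and 7874 against 5861 and 10312.

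Markers of further cell types are given beside the neutrophil granule genes, and their part in the result was not tested. In RNA from a whole sorted sample, fewer cells of a type and less RNA per cell cannot be told apart. The summed signal of the other 4 measured neutrophil markers was 113.8 and 354.7 in knockout and 95 and 87.5 in wild type, and their signals never exceeded 233.2. For monocytes and macrophages, 7 of 10 measured genes other than Lyz2 were higher and 0 lower within both array numbers, and the sum was 736.1 and 1426 in knockout and 444.2 and 634.4 in wild type. Mpeg1, a phagocyte pore-forming protein, had 150.0 and 387.8 against 83.0 and 14.7. Csf1r, the receptor for macrophage colony-stimulating factor, had 208.2 and 356.0 against 130.1 and 174.1. Of the C1q genes, C1qa and C1qc were below 15.3 on both arrays numbered 1. C1qb had 70.3 and 104.6 in knockout and 25 and 50.5 in wild type. Its knockout arrays lay above its wild-type arrays without overlap, as in 10.9% of all unfiltered probe sets. Dendritic cell markers had sums of 303.3 and 354.6 in knockout and 289.4 and 285.8 in wild type, and Zbtb46, the only one kept, differed by 0.10 (SE 0.35). Of 6 measured, 1 was higher and 1 lower within both array numbers. The higher was Itgax, at 81 and 117.8 in knockout and 41.4 and 10.7 in wild type. The lower was Flt3, at 29.5 and 9.6 against 44.2 and 36.7. Markers of eosinophils, basophils and mast cells were all too dim to be kept, with sums of 99.6 and 261.3 in knockout and 77.2 and 145.3 in wild type. Of 8 measured, 4 were higher and 2 lower within both array numbers. In 4 both knockout arrays lay above both wild-type arrays and in 1 below, each as in 10.9% of all unfiltered probe sets. Cpa3 had 34.4 and 42.8 in knockout and 4.6 and 9.9 in wild type, and Siglecf had 2.3 and 3.6 against 15.8 and 19.8. Mcpt8 was below 15.3 on every array. Myeloid signalling genes shared with other leukocytes were uneven, with 8 of 16 higher and 1 lower: Plek, a protein kinase C substrate, differed by 1.32 (SE 0.53; 0.52 and 2.12), while Cst3 and Ctss differed by 0.37 and 0.07, the last pair chosen after their values were seen.

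B cell markers were higher in knockout and brighter on arrays numbered 2, as the neutrophil granule genes were. Of 12 measured, 10 were higher and 0 lower within both array numbers, and the sum was 2126 and 18656 in knockout and 1555 and 5488 in wild type. The ratio of knockout to wild type was 1.37 within arrays numbered 1 and 3.40 within arrays numbered 2, against 3.64 and 10.2 for the neutrophil granule genes. The sizes of these ratios cannot be compared. The 7 genes were chosen by this contrast, and 4 of them lay below 15.3 on wild-type array 1. S100a8 and S100a9, at 3468 and 3797, made up most of their sum on knockout array 2. Of the 12 B cell markers, the MHC class II genes Cd74, H2-Aa, H2-Ab1 and H2-Eb1, which other antigen-presenting cells also express, made up 13708 of the sum on knockout array 2 and 3707 on wild-type array 2. The other 8 summed to 712.5 and 4948 in knockout and 637.9 and 1780 in wild type, ratios of 1.12 and 2.78, and 6 of them were higher and 0 lower within both array numbers. Cd74, the invariant chain of MHC class II, had 327.2 and 5141 in knockout and 162.6 and 1156 in wild type, and Cd79b, a chain of the B cell receptor complex, had 80.0 and 1184 against 54.9 and 418.7. Pax5, the defining B cell factor, was not kept and had 16.7 and 52.0 against 48.2 and 30.4. Of 8 erythroid and platelet markers, 1 was higher and 3 were lower within both array numbers, with sums of 271.8 and 923.3 in knockout and 305.1 and 1682 in wild type and median differences of 0.10 within arrays numbered 1 and -0.52 within arrays numbered 2; Slc4a1, the red cell anion exchanger, had 23.6 and 168.2 against 20.3 and 529.7. Of 11 cytotoxic and CD8 markers, 6 were higher and 3 lower within both array numbers, where 25.7% of all unfiltered probe sets were higher and 26.8% lower. In 5 both knockout arrays lay above both wild-type arrays and in 1 below, each as in 10.9% of all unfiltered probe sets. Gzma, a granule protease, had 521.2 and 468.4 against 195.4 and 89.6, and Nkg7 had 323.9 and 344.5 against 159.4 and 112.7. Ctsw, a cathepsin, went the other way, at 851.1 and 1240 against 2413 and 4114. In endothelium and stroma, 2 of 8 were higher and 2 lower, and Kdr, an endothelial receptor, differed by -1.11 (SE 0.57). Naive CD4 T cell markers had knockout to wild-type ratios of 0.947 and 0.938, with sums of 88884 and 166290 in knockout and 93810 and 177220 in wild type; 0 of 11 were higher and 4 were lower within both array numbers, among them Il7r, the interleukin 7 receptor, at 15154 and 15938 against 18091 and 19445.

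**Figure D3:**
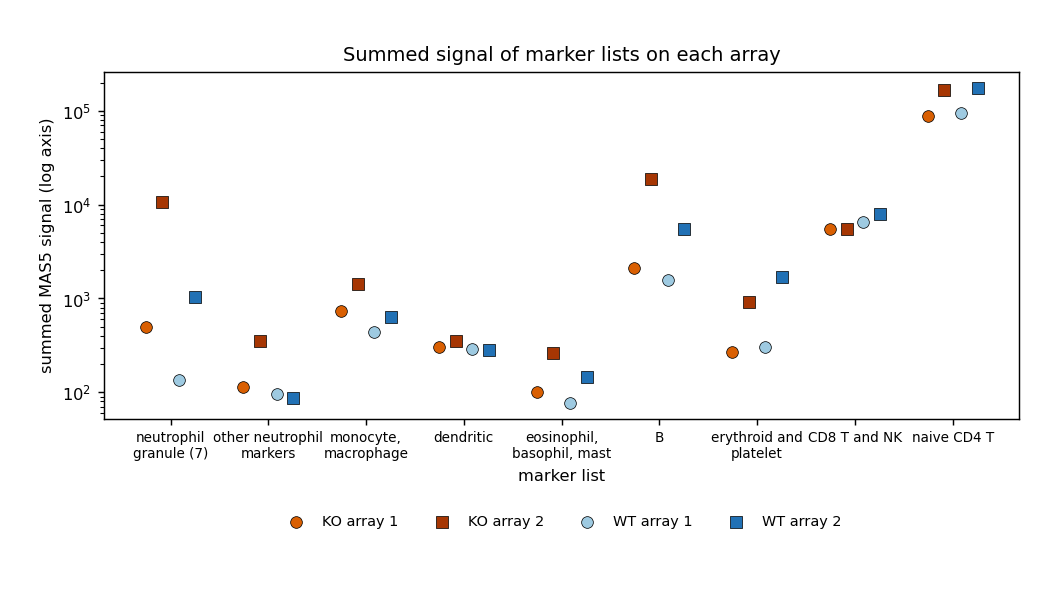
Summed MAS5 signal (log axis) of the 7 neutrophil granule genes and of marker lists of other cells, with 1 point per array, knockout (KO) in orange and brown and wild type (WT) in blue; genes among the 7 are left out of the other lists. The 7 granule genes sum to 10544 on knockout array 2 and to 135.6 on wild-type array 1, B cell markers to 18656 and 1555 on the same arrays, and naive CD4 T cell markers differ by array number and little by genotype.

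The genes outside the 7 with the most similar profile over the 4 arrays were found by the Euclidean distance between centred log2 profiles and the mean profile of the 7. The nearest was H2-Aa, an MHC class II chain, in a probe set dimmer than its brightest, at a distance of 0.62, with signals of 183.8 and 3626 in knockout and 74.5 and 594.5 in wild type. It was followed by Cd74 at 0.75, H2-DMb2 at 0.91, Cebpb at 1.17 in the dimmer of its 2 probe sets, Ly86 at 1.21, H2-Ab1 at 1.22, Ms4a1 at 1.23 and Blnk at 1.23. The 7 genes themselves lay between 0.37, for Camp, and 2.44, for S100a9, from their own mean. Chil3 lay at 2.17 and Csf3r at 3.13. With 4 arrays in 2 numbered pairs, and signals shared by the same RNA samples, this likeness is a description.

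**Figure D4:**
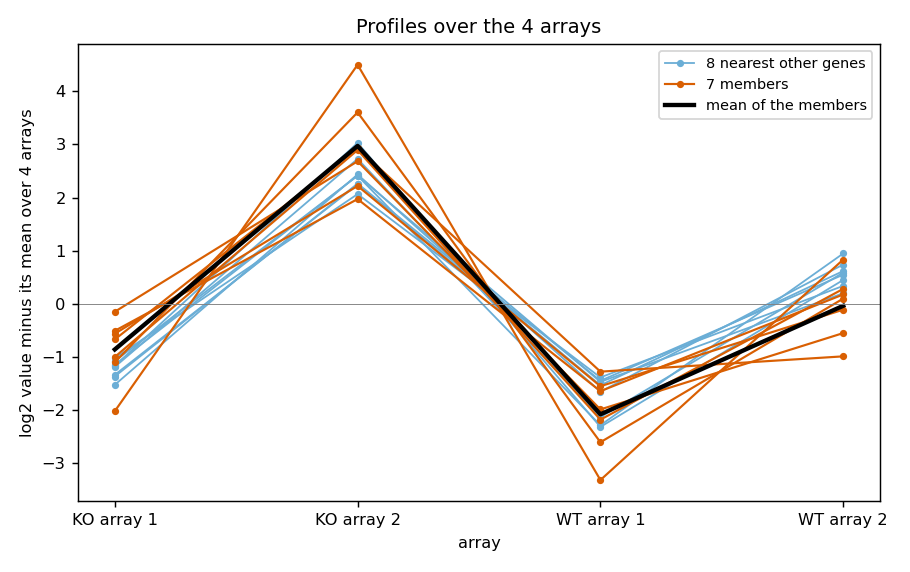
Log2 values minus their mean over the 4 arrays for the 7 neutrophil granule genes (orange), their mean (black) and the 8 nearest other genes (light blue), with 1 point per array and lines that only join the points of a gene. The mean profile is at -0.86 on knockout array 1, 2.97 on knockout array 2, -2.08 on wild-type array 1 and -0.04 on wild-type array 2.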

How the data were processed

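RNA was measured in 4 arrays, 2 per genotype. Trizol extraction was followed by labelling of cRNA with biotin, per the labels' protocols. The authors deposited linear MAS5 intensities, 1 per probe set, and the submitters' processing notes name MAS5 without its settings. The deposited arrays share a trimmed mean of 500.003 with 2% of values trimmed at each end. The table lacks detection calls.

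Of 45101 probe sets, 64 controls were left out; 34945 of the rest had 1 gene symbol, 932 several and 9160 none, and 34741 symbols were updated through Entrez identifiers in a RefSeq table of GRCm38.p6. Signals were transformed as log2(signal + 15.3). Kept probe sets had a mean signal above the median of such means, 65.4, which left 22518. Each listed gene was represented by its brightest kept probe set, or by its brightest where none was kept. Limma 3.58.1 in R 4.3.3 compared genotypes (lmFit and eBayes, two-sided, Benjamini-Hochberg) with no block; array number was a block in an alternative. Limma with and without the block was tried on simulated data with known changes, and the trended fit was not. The simulated data were given a shift by array number and a spread near that of the blocked fit. They therefore cannot show whether the block holds for these arrays. Other pseudocounts, filters, normalizations, priors and each array left out were tried. The labels give the numbers no meaning.

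The members and gene lists were chosen with earlier results of these data known. Named genes are the 7 members, up to 3 per list with the largest same-sign difference, the 2 brightest of each list of other cells and the 8 nearest profiles; all other named genes were chosen after their values were seen. Motifs were searched in RefSeq windows with Python 3.11.15.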

Additional observations from a re-analysis of the deposited data

How the results depend on the processing

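All 7 genes stayed higher in knockout within both array numbers under the other pseudocounts, filters, quantile normalization, median centring and averaged probe sets. Their median difference of 2.26 ran from 1.35, with the pseudocount at the median of all values, to 2.78, with a pseudocount of 1, and from 0.22, without knockout array 2, to 3.95, without knockout array 1, when 1 array was left out. Leaving out 1 array gave 0.15 to 4.85 for S100a8, -0.78 to 5.74 for S100a9, 1.12 to 3.95 for Ngp, -0.052 to 3.84 for Camp, 0.22 to 2.70 for Ltf, 0.46 to 4.06 for Lcn2 and 0.27 to 3.05 for Lyz2, with S100a9 and Camp turned below 0 without knockout array 2. Leaving out any 1 array unbalances array number between the genotypes, so the low and the high ends of these ranges both mix in array number. The count of probe sets called for genotype was 0 in limma without a block, 1 with the replicate block, 257 with the replicate block and a trended prior together, and 6 with the replicate block and a filter on mean log2 values, an alternative chosen after seeing the data, in which Lcn2 no longer passed the filter. It was 0 with each array left out. Of 88 kept genes of the lists, which were chosen with earlier results known, 0 were called for genotype, and 16 with the replicate block and a trended prior, of which 15 were higher and 1, Ctsw, was lower, where 1.14% of all kept probe sets were called and 0.804% were higher. Among the 16 were Cd74, H2-Aa, Mpeg1, Lyz1, S100a4, Gzma, Nkg7, Chil3, Cebpb, Irf8 and Ctsw, so the calls were not limited to granulocyte genes. The 88 include the 7 neutrophil granule genes, and 5 of these (S100a8, S100a9, Ngp, Camp and Lyz2) are among the 16. Since those 5 were chosen by this contrast, the count cannot be read against the share over all kept probe sets. The count for array number was 7686, and 0 with no filter; the cause was not tested. Deviations of same-numbered arrays correlated at 0.800, and only 2 pairs exist, so the pairing by number is not established by the labels. The missing detection calls limit what can be said of signals near 15.3.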
